A study of Mus musculus with 12 samples.

Results

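The genes described here are 9 complement genes other than those of the C1q chains: C3, Cfb, C2, C4b, Cfp, C3ar1, C5ar1, Serping1 and Cd55. They were taken by gene symbol among the probes of an Agilent mouse array, through the RefSeq transcript each probe is annotated with. All 9 were on the array, through 12 probes, and all 9 passed the filter on dim probes. They stand among 21856 genes or identifiers tested, of which 13645 carried a gene name.

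Expression was measured in lung RNA of 12 FVB/N mice (strain label FVB/NJ), described as female and 7 weeks old at the start, in 4 groups of 3 arrays. LPS/NNK mice received both agents. LPS mice received lipopolysaccharide, the endotoxin of bacterial outer membranes, at 5 µg per mouse into the nose every week for 16 weeks. NNK mice received NNK, a nitrosamine carcinogen of tobacco, by intraperitoneal injection of 3 mg per mouse over the first 4 weeks (biweekly in the protocol, semi-weekly in the regimen label). PBS mice, the controls, were treated weekly for 16 weeks. No genetic change is named for any group. No carrier solution and no nasal dosing is named for the NNK mice, and whether they were handled like the other groups is not stated in the sources used here. Lungs were taken 1 week after the last treatment, and the sources used here give neither the age of the NNK mice at death nor whether tumour tissue was part of a sample. Each array was taken as 1 mouse from its number, and p-values measure the spread between these arrays.

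Complement is a cascade of proteins that coats microbes and damaged cells, draws in leukocytes and opens pores in membranes. The classical and lectin routes cut C4 and C2, the alternative route builds on factor B and is steadied by properdin, and all routes meet at the cleavage of C3. The small fragments of C3 and C5 signal through receptors on leukocytes, while soluble and membrane-bound inhibitors protect host cells. Most plasma complement comes from the liver, and macrophages and epithelial cells of the lung also make components such as C3 and factor B.

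Levels are given as log2 of the background-subtracted signal minus the 75th percentile of the same array, so 0 is the brightness of that percentile. Levels of different probes are not compared with each other. The PBS arrays stood apart from the 9 treated arrays. Of all spots, 55.6% to 67.5% were well above background on the treated arrays, against 70.2% to 73.1% on the PBS arrays. Across genes the correlation of a treated with a PBS array was 0.878 to 0.933, against 0.942 to 0.990 among treated arrays and 0.978 to 0.984 among PBS arrays. PBS 1 and PBS 2 had the Y-linked transcripts Ddx3y (0.72 and 0.92) and Eif2s3y (1.26 and 1.43) well above background and Xist below it (-8.54 and -8.49), although the labels describe female mice. PBS 3 and all treated arrays had the opposite pattern. Member values against PBS are therefore also given without these 2 arrays. That leaves PBS 3 as the only control array, so calls and counts made without them depend on it alone. A call lost there can come from the fewer arrays as well as from a smaller difference. LPS and NNK arrays held the same place on their slides, while LPS/NNK and PBS arrays each had another, so place and group cannot be told apart outside LPS against NNK. The lung epithelium markers Sftpa1, Sftpb, Sftpc, Ager, Cldn18 and Scgb1a1 were above background in every group. Of these 6, 3 rose in LPS and 4 in NNK against PBS lungs, where 25.1% and 27.2% of all items were called higher. In LPS/NNK against PBS lungs 2 rose and Scgb1a1 fell. Sftpa1 was among the rises, but its other probe averaged 4.04 in PBS, 3.77 in LPS and 3.56 in NNK lungs. Sftpb and Scgb1a1 fell in LPS/NNK against NNK lungs, by 1.71 (adjusted p = 0.00511) and 1.43 (adjusted p = 0.0061).

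In LPS lungs most of the complement genes were higher than in PBS lungs. Of the 9 genes, 8 rose and 0 fell (limma, adjusted p under 0.05, 3 arrays per group), and only Cd55 passed in neither direction. Over all 21856 items, 25.1% were called higher and 31% lower in this comparison. The members' median log2 difference was 1.98, against -0.10 over all items. In bulk tissue a change in how many cells make a transcript and a change in how much each cell makes cannot be told apart.

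LPS/NNK lungs were higher than PBS lungs in most of the 9 genes as well. Here 7 rose and 0 fell, with a median of 2.10 against -0.08 over all items, where 27% were called higher and 28.4% lower. Serping1 and Cd55 did not pass. NNK lungs showed less: C4b and Cfp rose, Cd55 fell, and 6 genes did not pass. With 27.2% of all items called higher and 24.6% lower in NNK against PBS, these counts are near the background. The members' median there was 0.34, against 0.01 over all items. The comparisons with PBS share the same 3 control arrays.

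The LPS groups were also set against NNK lungs, without the PBS arrays in the contrast. In LPS/NNK against NNK lungs, C3, Cfb, C2 and Cfp rose and 0 members fell, against 7.77% of all items called higher and 9.8% lower. The members' median difference was 1.17, against -0.08 over all items. In LPS against NNK lungs, C3, Cfb, C2, C4b and Cfp rose and 0 fell, where 2.73% of all items were called higher and 3.66% lower. The members' median difference was 1.28, against -0.15 over all items. In these comparisons and those of the LPS groups with PBS, 0 members were lower at an unadjusted p under 0.05. LPS/NNK against LPS lungs gave no call: 0 of 9 genes were called higher and 0 lower by limma, and 0 had an unadjusted p under 0.05. In that comparison 2.87% of all items were called higher and 1.29% lower.

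**Figure D1:**
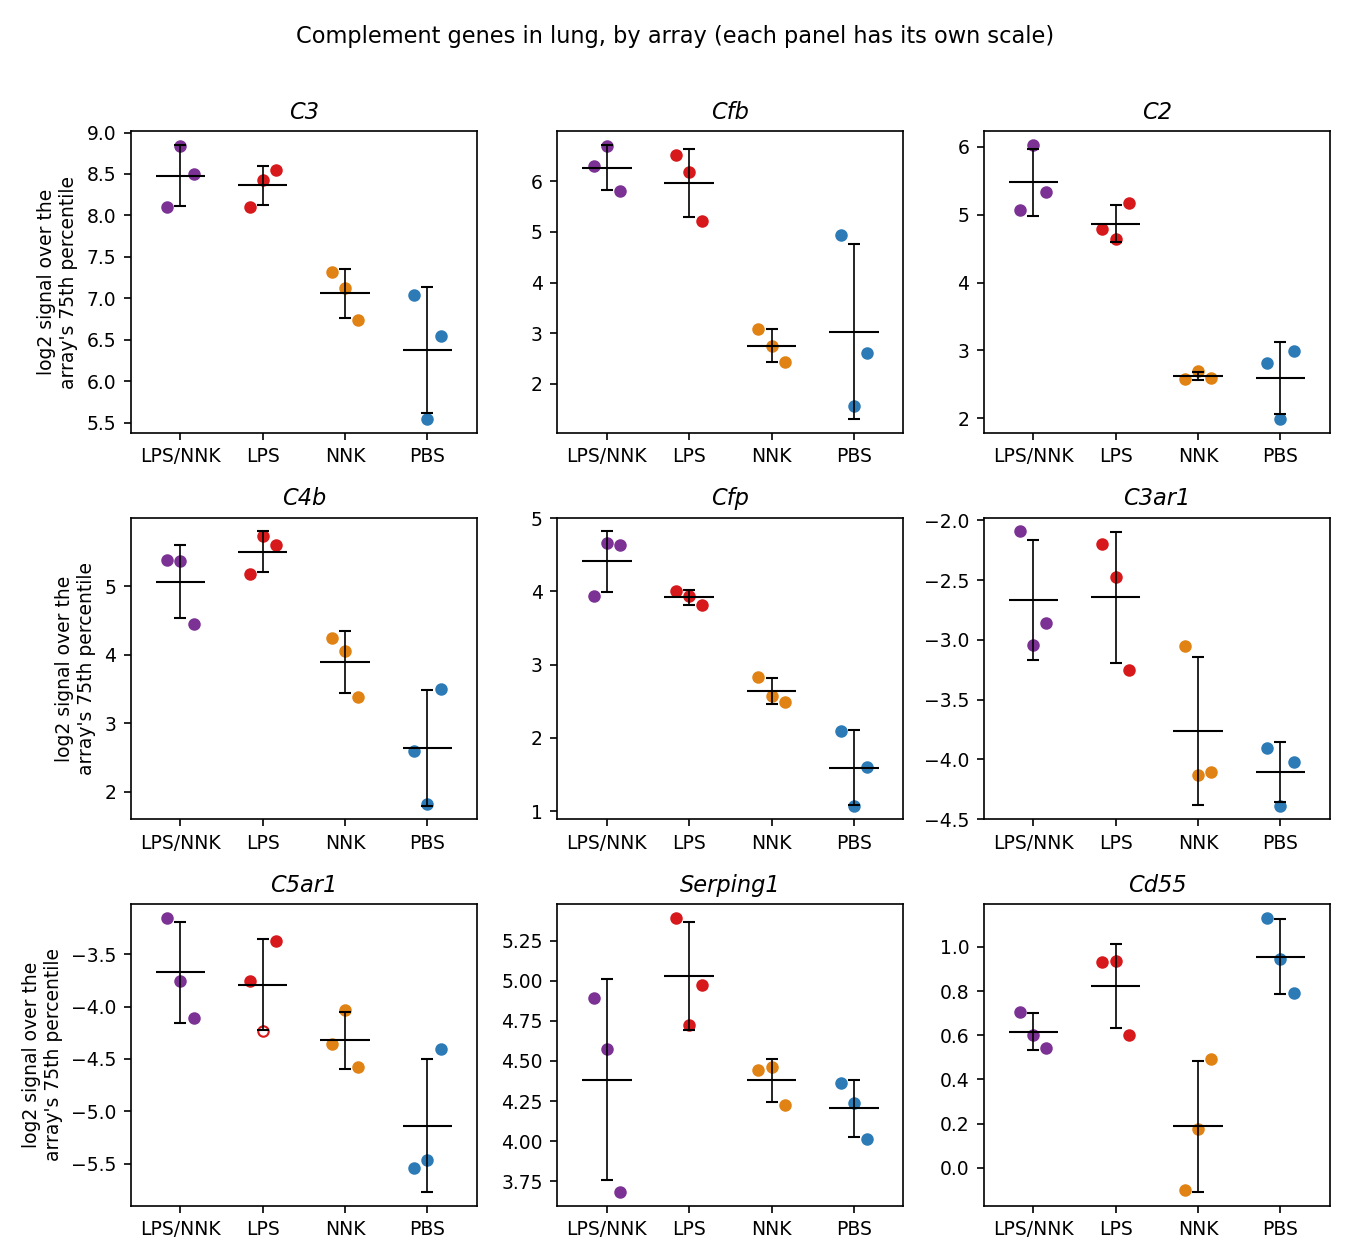
Log2 signal of each of the 9 genes over the 75th percentile of its array, with groups in the order LPS/NNK, LPS, NNK and PBS on the horizontal axis, 1 point per array, and the mean with its SD in black; an open point is not well above background. For C3, Cfb, C2 and Cfp every LPS/NNK and LPS array lies above every NNK and PBS array, and each panel has its own vertical scale.

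**Figure D2:**
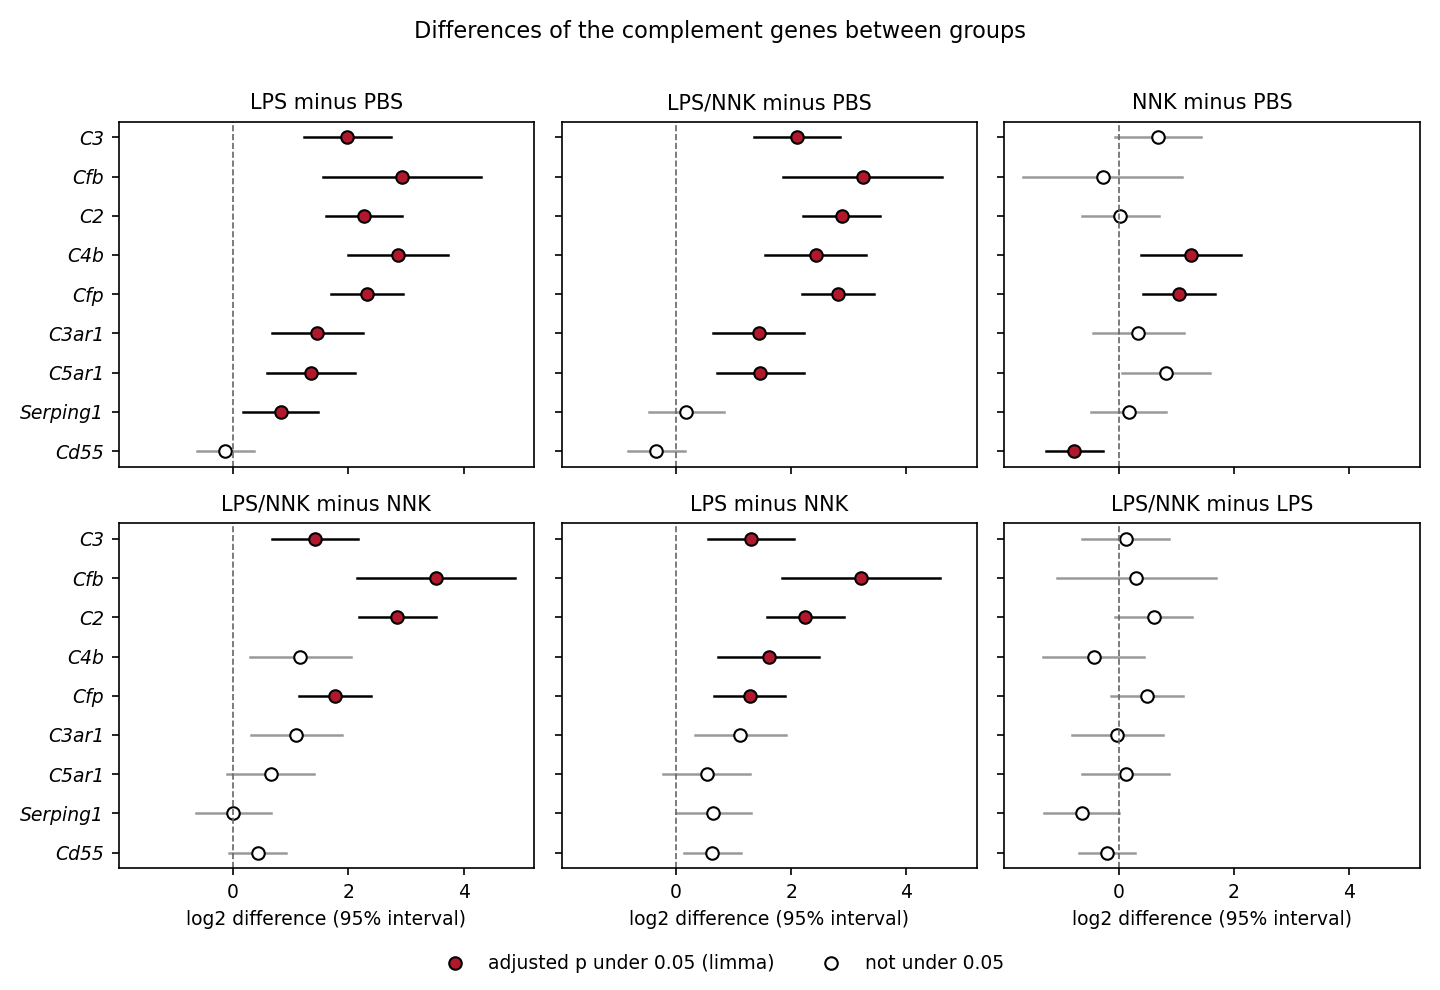
Log2 differences (horizontal axis) of the 9 genes in 6 comparisons, in the direction each panel is titled, with 95% intervals from limma; filled points have adjusted p under 0.05. Filled points lie above 0 for 8 genes in LPS minus PBS and for 4 in LPS/NNK minus NNK, and for none in LPS/NNK minus LPS.

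C3 is the protein on which all routes meet, and its split product tags surfaces for uptake. Its levels were 8.10, 8.84 and 8.50 in LPS/NNK lungs and 8.10, 8.43 and 8.55 in LPS lungs. They were 7.32, 7.13 and 6.74 in NNK lungs and 7.04, 5.54 and 6.55 in PBS lungs. Every array of mice given LPS was above every array of the other groups, and PBS 2 was the lowest. C3 was 3.96-fold higher in LPS than in PBS lungs (log2 1.98, SE 0.35, adjusted p = 0.000488) and 4.30-fold higher in LPS/NNK than in PBS lungs (log2 2.10, SE 0.35, adjusted p = 0.000274). It rose 2.68-fold in LPS/NNK against NNK lungs (log2 1.42, SE 0.35, adjusted p = 0.0157) and 2.46-fold in LPS against NNK lungs (log2 1.30, adjusted p = 0.0415). In NNK against PBS lungs the difference was 0.68, with a 95% interval of -0.07 to 1.43 (adjusted p = 0.114).

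The size of the C3 difference depended on how arrays were scaled to each other. With quantile normalization it was 0.77 in LPS against PBS lungs (adjusted p = 0.071) and with cyclic loess 0.70 (adjusted p = 0.0551), so that call was lost. The same held for LPS/NNK against PBS, with 0.77 and 0.52. Without PBS 1 and PBS 2 C3 differed by 1.93 in LPS/NNK and 1.81 in LPS against PBS lungs. Against NNK lungs the C3 call in LPS/NNK was kept under quantile normalization and cyclic loess. Among 26 alternatives it was lost without NNK 5 (1.26, adjusted p = 0.0518) and without LPS/NNK 3 (1.24, adjusted p = 0.0688). The call of LPS against NNK was lost under 10 of 25 alternatives.

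RefSeq (GRCm38.p6) gave a promoter window for 5 of the 9 genes, C3, Cfp, C3ar1, C5ar1 and Cd55, and those of C3 and Cfp are shown because these genes rose together in the comparisons above. Each is the 250 bases before the transcription start, 5′ to 3′ on the gene's strand. The C3 window is chr17:57228137-57228386 and the Cfp window chrX:20931556-20931805, both on the minus strand. Capitals mark a C/EBP-type sequence (TTGC, any pair of bases, AA) found by search.
C3: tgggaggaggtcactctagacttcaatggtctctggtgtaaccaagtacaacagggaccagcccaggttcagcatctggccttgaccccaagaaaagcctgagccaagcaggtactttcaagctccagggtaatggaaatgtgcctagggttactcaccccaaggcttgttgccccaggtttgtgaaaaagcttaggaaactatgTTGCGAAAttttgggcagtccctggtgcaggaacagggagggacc
Cfp: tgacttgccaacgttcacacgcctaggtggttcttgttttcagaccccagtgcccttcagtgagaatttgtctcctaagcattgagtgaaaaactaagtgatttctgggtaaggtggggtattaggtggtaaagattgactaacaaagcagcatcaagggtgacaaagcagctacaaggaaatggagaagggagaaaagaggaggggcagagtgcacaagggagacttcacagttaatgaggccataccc
The search covered both strands of the 5 windows for an interferon-stimulated response element (TTTC, any pair of bases, TTTC), a gamma-activated site (TTC, any 3 bases, GAA) and the NF-kB consensus, and none matched. The C/EBP sequence was added after that, and its match in C3, 45 to 38 bases before the start, was the only one. Among 32851 windows of this length, 2.98% held the response element, 7.02% the gamma-activated site, 3.90% the NF-kB consensus and 9.56% the C/EBP sequence, and a window with several was counted for each. A match of letters is a description and no binding was measured.

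Factor B, made from Cfb, is the protease of the alternative route and forms its convertase with a fragment of C3. Cfb measured 6.31, 6.70 and 5.81 in LPS/NNK lungs and 6.51, 6.18 and 5.21 in LPS lungs. NNK lungs had 3.08, 2.74 and 2.43, and PBS lungs 4.94, 1.56 and 2.60. PBS 1 was far above the other PBS arrays, yet still below every array of mice given LPS. Cfb rose 11.5-fold in LPS/NNK against NNK lungs (log2 3.52, SE 0.64, adjusted p = 0.00332), the largest difference of the 9 genes there. In LPS against NNK lungs it rose 9.28-fold (log2 3.21, adjusted p = 0.00914). Against PBS lungs it was 9.44-fold higher in LPS/NNK (log2 3.24, adjusted p = 0.000926) and 7.63-fold higher in LPS lungs (log2 2.93, adjusted p = 0.00192), each with an SE of 0.64. Without PBS 1 alone the log2 difference of LPS to PBS was 3.88, and without PBS 1 and PBS 2 those to PBS were 3.67 in LPS/NNK and 3.36 in LPS lungs. NNK and PBS lungs differed by -0.28, within an interval of -1.66 to 1.09. These 4 calls of Cfb were kept under every alternative run.

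Properdin, made from Cfp, is a plasma protein of leukocytes that holds the alternative convertase together. Cfp was at 3.93, 4.66 and 4.63 in LPS/NNK lungs and at 4.01, 3.94 and 3.81 in LPS lungs. It was at 2.84, 2.58 and 2.49 in NNK lungs and at 2.10, 1.08 and 1.61 in PBS lungs. The arrays formed 3 separate levels, with LPS/NNK and LPS on top, NNK in the middle and PBS lowest, and NNK and PBS arrays did not overlap. Cfp was 7.04-fold higher in LPS/NNK than in PBS lungs (log2 2.82, SE 0.29, adjusted p = 1.08e-05) and 5.01-fold higher in LPS than in PBS lungs (log2 2.33, adjusted p = 5.06e-05). It rose 3.42-fold in LPS/NNK against NNK lungs (log2 1.77, adjusted p = 0.00175) and 2.43-fold in LPS against NNK lungs (log2 1.28, adjusted p = 0.0176), where the call was lost under 5 of 25 alternatives. NNK lungs exceeded PBS lungs 2.06-fold (log2 1.04, SE 0.29, adjusted p = 0.00907). That last call was lost under 4 of 26 alternatives, and without PBS 1 and PBS 2 the difference was 1.03. The rises of both LPS groups over PBS were 2.80 in LPS/NNK and 2.31 in LPS lungs without these arrays.

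C2 is the protease of the classical and lectin convertase, and in the mouse its gene lies next to Cfb on chromosome 17, with C4b nearby. C2 measured 5.07, 6.03 and 5.33 in LPS/NNK lungs and 4.79, 4.65 and 5.17 in LPS lungs. It measured 2.58, 2.70 and 2.60 in NNK lungs and 2.81, 1.99 and 2.99 in PBS lungs. NNK and PBS arrays overlapped, and all arrays of mice given LPS lay above them. C2 rose 7.21-fold in LPS/NNK against NNK lungs (log2 2.85, SE 0.31, adjusted p = 0.00015) and 4.73-fold in LPS against NNK lungs (log2 2.24, adjusted p = 0.00101). Against PBS lungs it rose 7.37-fold in LPS/NNK (log2 2.88, adjusted p = 1.51e-05) and 4.83-fold in LPS lungs (log2 2.27, adjusted p = 9.68e-05). NNK and PBS lungs differed by 0.03 (interval -0.64 to 0.70), with a sign that turned under 10 of 26 alternatives. The 4 rises of C2 were kept under every alternative run, those against PBS at 2.48 in LPS/NNK and 1.88 in LPS lungs without PBS 1 and PBS 2.

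C4b encodes complement C4, the protein that C1s and the lectin proteases cut to build the convertase with C2. Its levels were 5.38, 5.36 and 4.45 in LPS/NNK lungs and 5.17, 5.73 and 5.61 in LPS lungs. NNK lungs had 4.25, 4.05 and 3.38, and PBS lungs 2.59, 1.82 and 3.51. PBS 3 lay above NNK 5, and LPS/NNK 6 was the lowest array of mice given LPS. C4b rose 7.28-fold in LPS against PBS lungs (log2 2.86, SE 0.40, adjusted p = 0.000122) and 5.37-fold in LPS/NNK against PBS lungs (log2 2.42, adjusted p = 0.000287). It rose 3.05-fold in LPS against NNK lungs (log2 1.61, adjusted p = 0.0314), a call lost under 7 of 25 alternatives. Without PBS 1 and PBS 2 the differences to PBS were 1.56 in LPS/NNK and 1.997 in LPS lungs. The difference in LPS/NNK against NNK lungs was 1.17 (SE 0.40, adjusted p = 0.0609), and it passed with the slide as a random block (1.30, adjusted p = 0.0208) or as a fixed effect (1.55, adjusted p = 0.013). NNK lungs exceeded PBS lungs 2.38-fold (log2 1.25, adjusted p = 0.02), a call lost under 10 of 26 alternatives. Without PBS 1 and PBS 2 that difference was 0.39. C4a, a near-identical copy of C4b, was called higher in LPS against PBS lungs (3.00, adjusted p = 0.000104). It passed the filter through the LPS arrays alone, so that call is no separate support for C4b. C4a was well above background on 1 of 3 PBS arrays, which leaves the size of its difference uncertain. Signal of the pair may be shared between their probes.

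Whether the LPS difference had another size with NNK was tested as the LPS/NNK minus NNK difference less the LPS minus PBS difference. C4b was the only one of the 9 called, and lower: its LPS difference was 1.17 with NNK and 2.86 without, a gap of -1.69 (SE 0.57, adjusted p = 0.0324). No member was called higher (0 by limma, and C4b alone had an unadjusted p under 0.05), while 20.8% of all items were called higher and 18.2% lower. The other 8 gaps lay between -0.82 (Serping1) and 0.59 (Cfb). The C4b call was lost under 12 of 24 alternatives, and without PBS 1 and PBS 2 the gap was -0.83.

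C3ar1 and C5ar1 encode the receptors through which the small fragments of C3 and C5 call and activate myeloid cells. C3ar1 was at -2.09, -3.05 and -2.86 in LPS/NNK lungs and at -2.20, -2.48 and -3.25 in LPS lungs. It was at -3.05, -4.13 and -4.11 in NNK lungs and at -3.91, -4.39 and -4.02 in PBS lungs. NNK 2 reached the levels of mice given LPS, while the other NNK arrays lay with PBS. C3ar1 rose 2.76-fold in LPS against PBS lungs (log2 1.46, SE 0.37, adjusted p = 0.00459) and 2.71-fold in LPS/NNK against PBS lungs (log2 1.44, adjusted p = 0.00491). It missed the threshold in LPS/NNK against NNK (1.10, adjusted p = 0.0549) and in LPS against NNK lungs (1.12, adjusted p = 0.0928). The other C3ar1 probe was called higher in both, by 2.10 (adjusted p = 0.0168) and by 2.19 (adjusted p = 0.0261), although it was well above background on 1 of the 3 NNK arrays.

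C5ar1 measured -3.15, -3.75 and -4.11 in LPS/NNK lungs and -3.76, -4.24 and -3.37 in LPS lungs. It measured -4.36, -4.03 and -4.58 in NNK lungs and -5.54, -5.46 and -4.41 in PBS lungs. PBS 3 lay within the range of the NNK arrays, and LPS 5 was not well above background. The dimmest value still well above background differed by group. It was -6.29 to -6.06 on PBS, -5.36 to -4.84 on NNK, -4.82 to -4.27 on LPS and -5.58 to -4.37 on LPS/NNK arrays. C5ar1 lay near it, and C3ar1 less so. C9, not well above background on any array, averaged -8.36 in PBS and -6.68 in LPS lungs. The part of this limit in the receptor differences was not tested. C5ar1 rose 2.55-fold in LPS (log2 1.35, SE 0.35, adjusted p = 0.00587) and 2.76-fold in LPS/NNK against PBS lungs (log2 1.47, adjusted p = 0.00344). With NNK lungs as the comparison the differences were 0.65 in LPS/NNK (adjusted p = 0.218) and 0.53 in LPS lungs (adjusted p = 0.441). Without PBS 1 and PBS 2, with PBS 3 as the only control, C3ar1 differed by 1.38 in LPS and 1.36 in LPS/NNK lungs. C5ar1 differed by 0.62 and 0.74. In LPS against PBS, background correction with normexp also ended both calls, at 1.25 for C3ar1 (adjusted p = 0.0748) and 1.04 for C5ar1 (adjusted p = 0.132). In NNK against PBS the differences were 0.34 for C3ar1 (adjusted p = 0.448) and 0.81 for C5ar1 (adjusted p = 0.0679), neither called. Normexp called both higher there, at 1.44 (adjusted p = 0.0318) and 1.65 (adjusted p = 0.0224). C3ar1 was called there under 1 of 26 alternatives. C5ar1 was called under 3 of 25, also with cyclic loess (0.998) and without PBS 3 (1.18). Without PBS 1 and PBS 2 the NNK differences were 0.26 for C3ar1 and 0.0844 for C5ar1.

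Serping1 encodes the C1 inhibitor, which blocks the proteases that open the classical and lectin routes. Its levels were 4.89, 4.57 and 3.68 in LPS/NNK lungs and 5.39, 4.72 and 4.97 in LPS lungs. NNK lungs had 4.44, 4.46 and 4.23, and PBS lungs 4.36, 4.24 and 4.01. All LPS arrays lay above all NNK and PBS arrays, and LPS/NNK 6 was the lowest of the 12. Serping1 was 1.77-fold higher in LPS than in PBS lungs (log2 0.83, SE 0.30, adjusted p = 0.0323). This call was lost under 9 of 25 alternatives, among them quantile normalization (0.17) and cyclic loess (0.08). Without PBS 1 and PBS 2 the difference was larger, at 1.01. Its difference in LPS/NNK against PBS lungs was 0.18 (interval -0.47 to 0.83). LPS/NNK and LPS lungs differed by -0.65 (interval -1.30 to 0.004, adjusted p = 0.198).

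Cd55 encodes decay-accelerating factor, a membrane protein that takes convertases apart on host cells. Cd55 was at 0.71, 0.60 and 0.54 in LPS/NNK lungs and at 0.93, 0.94 and 0.60 in LPS lungs. It was at -0.10, 0.17 and 0.49 in NNK lungs and at 1.13, 0.94 and 0.79 in PBS lungs. NNK arrays were the lowest and did not overlap with any other group. Cd55 fell 1.70-fold in NNK against PBS lungs (log2 -0.77, SE 0.23, adjusted p = 0.0133), a call lost under 5 of 26 alternatives. Without PBS 1 and PBS 2 that difference was -0.60. In LPS against PBS lungs it was -0.13 (interval -0.62 to 0.36) and in LPS/NNK against PBS lungs -0.34 (interval -0.83 to 0.15). Against NNK lungs Cd55 was 0.43 higher in LPS/NNK (adjusted p = 0.208) and 0.64 higher in LPS lungs (adjusted p = 0.125), neither past the threshold.

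C3 and C2 also had another probe each. The other C3 probe was called higher in LPS against PBS (1.69, adjusted p = 0.00382), LPS/NNK against PBS (1.32, adjusted p = 0.0158), LPS/NNK against NNK (1.45, adjusted p = 0.0291) and LPS against NNK lungs (1.83, adjusted p = 0.0199). The other C2 probe was called higher in the same 4 comparisons, with 2.19, 1.49, 1.69 and 2.39. The C2 probes had opposite signs in LPS/NNK against LPS lungs, 0.61 and -0.70, and neither passed. The C3 probes had opposite signs there too, 0.12 and -0.38, and in NNK against PBS lungs, 0.68 and -0.14, again with no call.

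Some pairs of arrays lay on the same slide, which allowed a comparison within it. On slides 6 and 7, LPS/NNK minus NNK was 3.57 and 4.26 for Cfb, 2.37 and 3.43 for C2, 1.36 and 2.16 for Cfp, and 0.98 and 2.10 for C3. C4b gave 1.33 and 1.98 in the same pairs. On slide 8, LPS/NNK 6 minus PBS 1 was 2.54 for Cfp, 2.53 for C2 and 1.86 for C4b, but 0.87 for Cfb, whose PBS 1 level was high. On slide 5, NNK 2 minus PBS 3 was 1.23 for Cfp, 0.74 for C4b and -0.89 for Cd55. LPS arrays shared no slide with another group, so slide and group cannot be told apart for them.

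The rest of the pathway was read from 5 lists of 48 genes, of which 45 had a probe and 35 were tested. Of these 35, 17 rose and 8 fell in LPS against PBS lungs, 14 rose and 5 fell in LPS/NNK against PBS, and 12 rose and 6 fell in NNK against PBS. Colec10, C1s2 and Cd55b passed the filter on dim probes through the PBS arrays alone, and C4a through the LPS arrays alone. In LPS against PBS lungs the former are among the falls and C4a among the rises, so the filter itself favoured these calls. Colec10 was not well above background on any treated array. In LPS/NNK against NNK lungs 7 rose and 3 fell, in LPS against NNK lungs 7 rose and 0 fell, and in LPS/NNK against LPS lungs 0 rose and 0 fell by limma. At an unadjusted p under 0.05, LPS against NNK had 3 lower, and LPS/NNK against LPS had 5 higher and 3 lower. In the interaction 8 were called higher and 6 lower. Over all items, the shares called higher and lower were 25.1% and 31% in LPS against PBS, 27% and 28.4% in LPS/NNK against PBS and 27.2% and 24.6% in NNK against PBS. They were 7.77% and 9.8% in LPS/NNK against NNK, where the pathway's falls were near that share. In LPS against NNK they were 2.73% and 3.66%, and in LPS/NNK against LPS 2.87% and 1.29%. In the interaction they were 20.8% and 18.2%, near the pathway's counts there. Without PBS 1 and PBS 2, an alternative chosen after seeing the data, PBS 3 was the only control. Fewer of these genes then rose and fewer fell in each comparison with PBS lungs. The same held for all items, so the shares above do not apply to that fit.

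Genes that start the classical and lectin routes gave 6 rises and 3 falls among 13 tested in LPS against PBS lungs, led by the C1q chains C1qc (4.28), C1qb (3.94) and C1qa (4.27), the recognition part of C1. Again 6 rose in LPS/NNK against NNK lungs, with C1qc at 3.49, C1qa at 2.89, C1qb at 2.25 and the collectin Colec11 at 1.63 (adjusted p from 4.79e-05 to 0.00259), and 1 fell. From the alternative route list, Cfhr2 fell by 1.49 in LPS against PBS lungs (adjusted p = 0.000648) and by 1.28 in NNK against PBS lungs (adjusted p = 0.00229).

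Among 3 terminal genes tested in LPS against PBS lungs, C6 and C8g rose, by 0.79 (adjusted p = 0.0142) and 0.94 (adjusted p = 0.0186), while Hc, the gene of C5, fell by 1.47 (adjusted p = 0.00779). Of 9 inhibitors tested 4 rose and 2 fell there, where 25.1% of all items were called higher and 31% lower. Clu, for clusterin, rose by 1.68 (adjusted p = 0.000486) and Cpn1, a subunit of the carboxypeptidase that trims complement fragments, by 1.56 (adjusted p = 0.000712). The 4 that rose, Clu, Cpn1, Susd4 and Vtn, were also called higher in NNK against PBS lungs. Clu averaged 4.64 in LPS, 4.71 in NNK and 2.96 in PBS lungs. No inhibitor was called in LPS against NNK lungs. Cpn1 was also 2.29 higher in NNK than in PBS lungs (adjusted p = 0.00017) and fell by 1.78 in LPS/NNK against NNK lungs (adjusted p = 0.00177). Cd55b, a close copy of Cd55, fell by 1.99 in LPS against PBS lungs (adjusted p = 0.0102) and was above background on 1 of 3 LPS arrays. Of 6 receptors 5 rose in LPS against PBS lungs: Itgax, Itgb2, Cr2, Itgam and C5ar2. The integrin chains Itgax (2.05, adjusted p = 9.60e-05) and Itgb2 (2.08, adjusted p = 0.000142) form a receptor for C3 fragments. Itgax, Itgb2 and C5ar2 were also called higher in NNK against PBS lungs, and in LPS against NNK lungs only Cr2 was. The other Cr2 probe averaged -4.32 in PBS and -4.73 in LPS lungs, and the other Itgam probe -2.70 and -2.53. Without PBS 1 and PBS 2, C1qa, C1qb, C1qc, C4a, Cfhr2, Hc, Clu, Itgax and Itgb2 kept their calls in LPS against PBS lungs, and C6, C8g, Cpn1 and Cd55b lost them. In NNK against PBS lungs Cpn1 kept its call and Cfhr2 lost it.

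**Figure D3:**
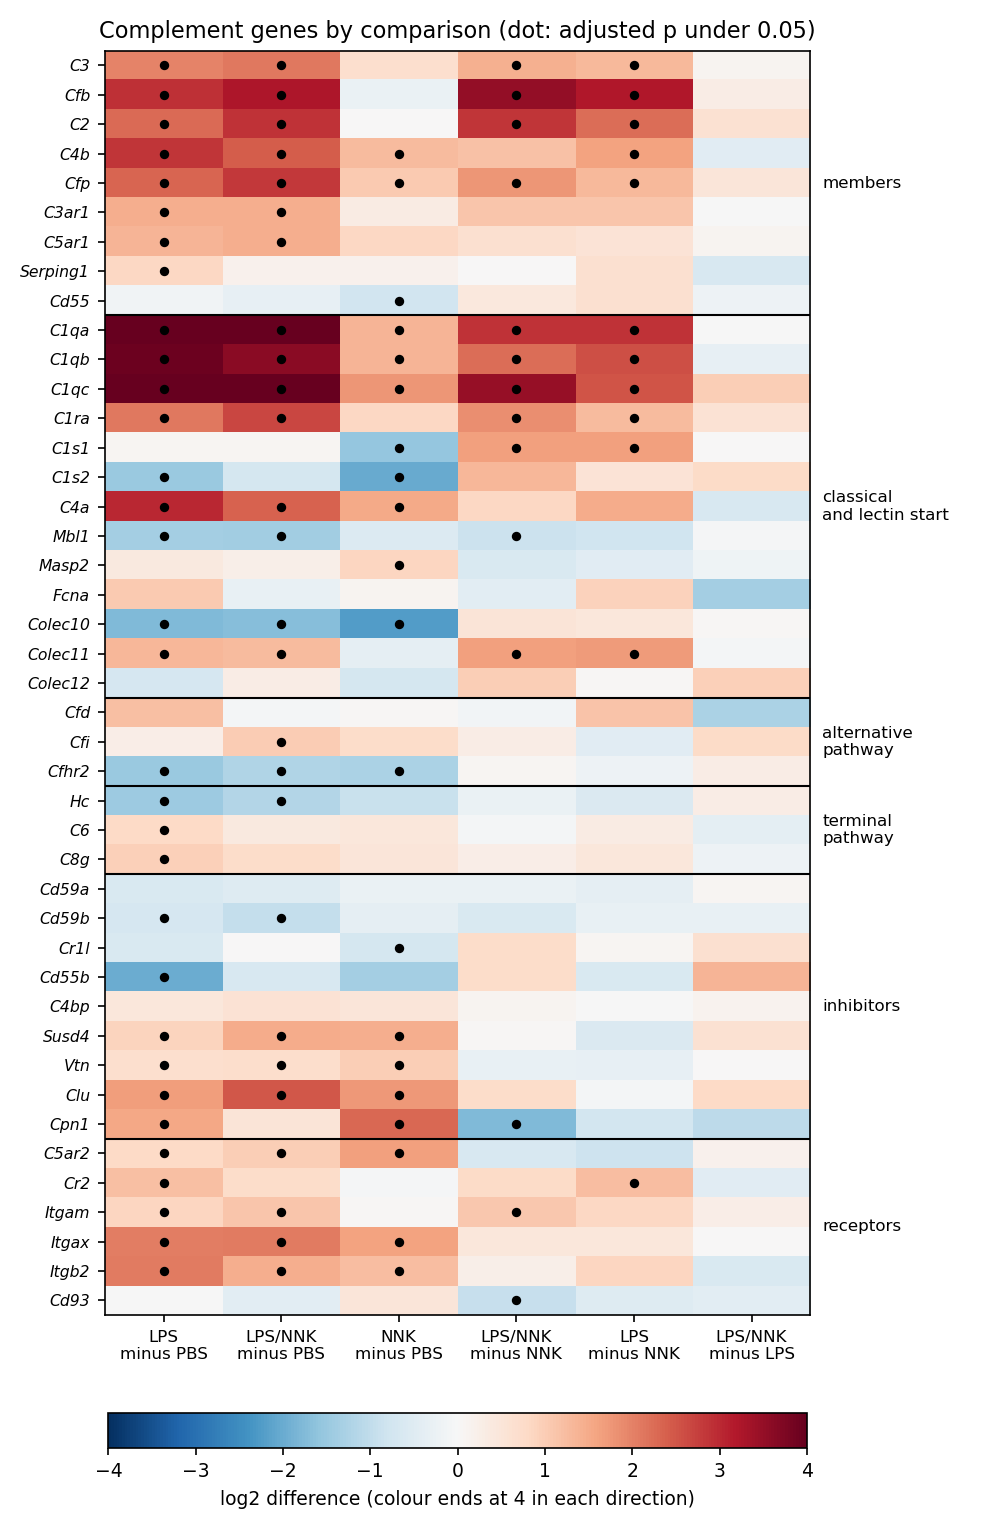
Log2 differences of the 9 genes (top block) and of 34 other complement genes (rows, by list) in 6 comparisons (columns, in the direction labelled); red is higher, blue is lower, the colour ends at 4, and a dot marks adjusted p under 0.05. In LPS minus PBS, dots stand on 8 of the 9 members and on 24 of the 34 others, and no dot stands in LPS/NNK minus LPS.

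Markers of T and B cells were higher in the groups given LPS, while those of neutrophils were called in both directions. Over 7 T cell markers, the summed signal relative to the 75th percentile was 25.2 to 45.2 in LPS/NNK lungs and 19.8 to 25.4 in LPS lungs. It was 5.17 to 7.20 in NNK lungs and 5.29 to 5.76 in PBS lungs. Of the 7, 5 rose in LPS/NNK against NNK lungs (Lat, Cd5, Cd3g, Cd3d and Cd8a), and 6 of 7 rose in LPS against PBS lungs. Over 5 B cell markers the sums were 18.5 to 24.6 in LPS/NNK, 11.6 to 28.1 in LPS, 6.82 to 10.5 in NNK and 6.09 to 11.5 in PBS lungs, and 3 of the 5 rose in LPS/NNK against NNK lungs. Of 11 monocyte and macrophage markers tested, 6 rose in LPS/NNK against NNK lungs, Fcgr1, Ccr2 and Adgre1 among them, and Ly6c1 fell. Their sums, 566 to 1501 in LPS/NNK, 476 to 749 in LPS, 571 to 802 in NNK and 297 to 439 in PBS lungs, overlapped between LPS/NNK and NNK. The 9 neutrophil markers tested had sums of 60.1 to 88.9 in LPS/NNK, 58.2 to 113 in LPS, 58.1 to 114 in NNK and 27.9 to 85.4 in PBS lungs, with Camp higher and Retnlg lower in LPS/NNK against NNK lungs. Fibroblast markers (6 tested) summed to 275 to 505 in LPS/NNK, 206 to 415 in LPS, 181 to 253 in NNK and 81.2 to 116 in PBS lungs. In both LPS groups Col1a1, Col1a2 and Col3a1 rose over PBS, and Dcn and Lum did not pass. Pdgfra fell by 1.16 in LPS/NNK (adjusted p = 0.004) and by 1.02 in LPS lungs (adjusted p = 0.00866) against PBS. Col1a1 and Col1a2 also rose in NNK against PBS lungs, where Lum fell. Col1a1 averaged 6.12 in LPS/NNK, 6.04 in LPS, 6.15 in NNK and 4.08 in PBS lungs. Of the 5 liver markers only Alb was tested. It was not well above background on any LPS/NNK or LPS array and had a signal of 0.0294 to 0.281 in NNK and 0.0251 to 0.0325 in PBS lungs. Without PBS 1 and PBS 2, in LPS against PBS lungs 3 T cell markers and 1 B cell marker were called higher, Pdgfra was not called, and no lung epithelium marker was called. The part of these cells in the complement results was not tested.

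Each member was set against all named genes by the Pearson correlation of levels over the 12 arrays, which share groups and scaling. The gene most like C3 was Ncf4 (r = 0.975), a subunit of the phagocyte oxidase, followed by Tnfaip2 (0.967) and Cfp itself (0.967). Cfp lay closest to Lrrc25 (0.991), Ncf4 (0.990) and the channel gene Trpv2 (0.987). Cfb was most like Tk1 (0.981), a thymidine kinase of dividing cells, then Ly6f (0.970) and Batf (0.966), a transcription factor of lymphocytes. C2 was most like Insl6 (0.986), Fgl2 (0.979) and the T cell adaptor Fyb (0.978). C4b lay nearest to the MHC class I genes H2-T23 (0.970) and H2-Q7 (0.965), with the leukocyte integrin chain Itgal (0.966) between them.

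The receptors and inhibitors had less close neighbours. C3ar1 was most like Vav1 (0.954), a signalling protein of blood cells, Acp5 (0.954) and Oas3 (0.948), and C5ar1 most like Eomes (0.940), Irak4 (0.920) and Dkk3 (0.910). Serping1 lay closest to Slc13a3 (0.943), Psmf1 (0.898) and Tmem176b (0.894). Cd55 lay closest to Erlec1 (0.905), Ccr9 (0.879) and Elp4 (0.876).

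**Figure D4:**
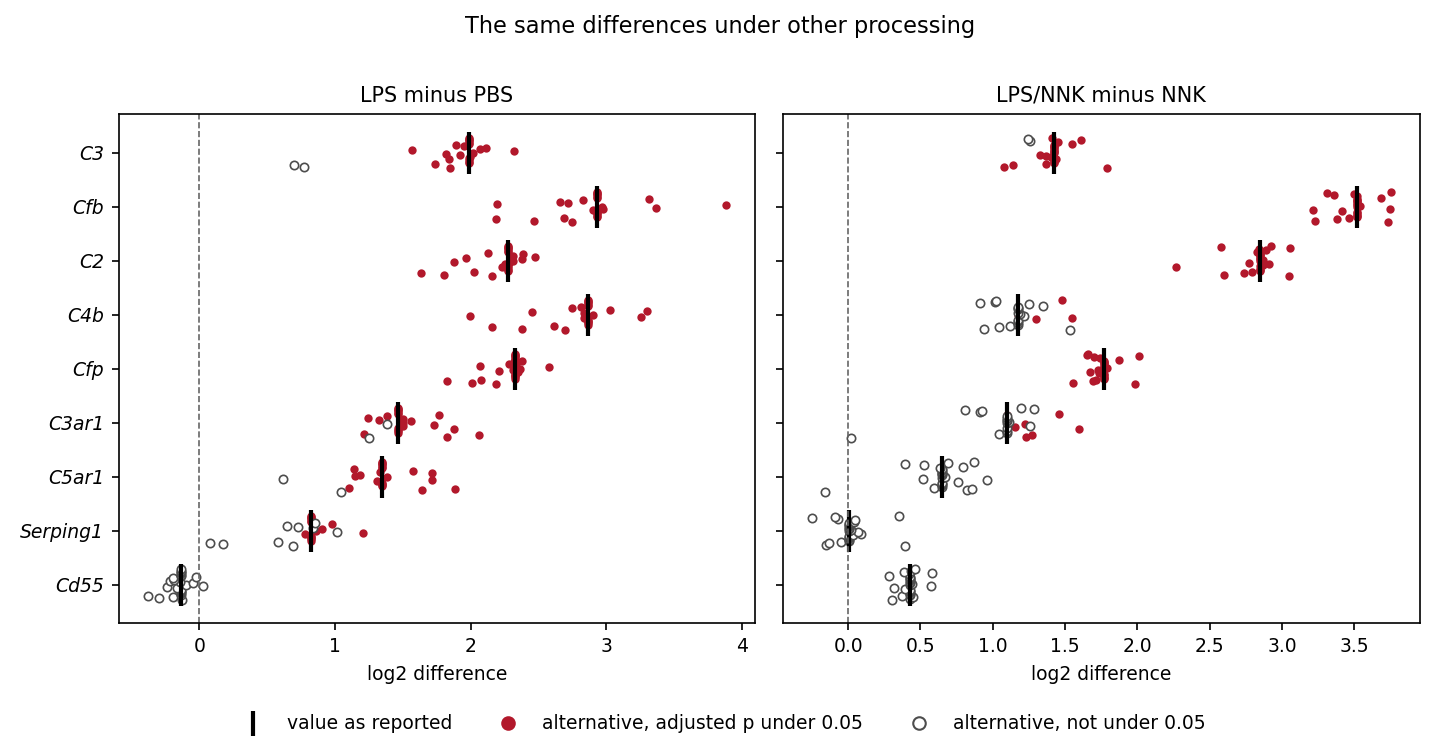
Log2 differences (horizontal axis) of the 9 genes in LPS minus PBS (left) and LPS/NNK minus NNK (right) as reported (black bar) and under each other way of processing (1 point each, spread vertically for sight, filled where adjusted p is under 0.05). Cfb, C2 and Cfp are filled under every alternative in both panels, and C3 falls to 0.70 and 0.77 in LPS minus PBS under cyclic loess and quantile normalization.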

How the data were processed

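Lung RNA of 12 mice was hybridised singly to 1-colour Agilent mouse arrays. The deposited scanner files hold intensity values made with Agilent Feature Extraction 10.7, per the file headers and the submitters' processing notes, and gProcessedSignal is background-subtracted and detrended within the array. The deposited value table holds log2 values already scaled to a 75th percentile near 0, as a comparison with the scanner files showed. Partek is also named in the submitters' processing notes, with no step given.

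Each array's log2 processed intensity was set relative to its 75th percentile over 43379 non-control spots. Spots of a probe were averaged after flagged outliers were left out, and 0 were saturated. Probes were kept where all arrays of 1 group or more had them well above background, which left 28334 of 41174 probes. The kept probe with the highest mean stood for a gene, and probes without a symbol were taken by identifier. One linear model over the 4 groups was fitted in limma 3.58.1 (R 4.3.3) with moderated variances, and p-values were adjusted by Benjamini-Hochberg over 21856 items at a threshold of 0.05. An exact permutation test of 3 against 3 arrays cannot go below 0.1, so none was used. The number of arrays limits the precision.

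The members and the gene and marker lists were chosen with earlier results of these data known. Genes outside the 9 were named as the called members of a list with the smallest p, up to 4 per list, and as the 3 named genes with the highest correlation to each member. Alternatives were normexp background correction, other normalizations, filters and probe rules, fewer groups in the fit, slide or replicate number as a block, the deposited table, and leaving out arrays. Normexp used median spot and background signals, since mean signals were not among the columns used. Same-numbered arrays of different groups correlated in their deviations by -0.147 to 0.408, so the numbers were not taken as pairs. Promoter windows came from RefSeq tables. The array design is annotated on mm8, and the only coordinates given are those of the C3 and Cfp promoter windows, from RefSeq on GRCm38.p6. Results of 1 gene of the pathway lists are not reported here by name or in the heatmap, while list counts include it.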

Additional observations from a re-analysis of the deposited data

Results flagged for a closer look

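The LPS difference of C4b was smaller with NNK than without it by a test of the difference itself. C4b averaged 5.06 ± 0.53 in LPS/NNK, 5.50 ± 0.30 in LPS, 3.89 ± 0.46 in NNK and 2.64 ± 0.84 in PBS lungs (SD, n = 3 each). The LPS/NNK minus NNK difference less the LPS minus PBS difference was -1.69 (limma, SE 0.57, 95% interval -2.92 to -0.46, adjusted p = 0.0324). It was lost under 12 of 24 alternatives, and without PBS 1 and PBS 2 the gap was -0.83. Over all items 18.2% were called lower in this test. No group of 3 arrays was tested for single outlying arrays.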

How the results depend on the processing

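Every count and member difference was recomputed under each alternative that could be fitted, except slide as a fixed effect in comparisons whose groups share no slide and in the interaction, and only the groups compared in the interaction, which uses all 4: 1712 values kept direction and side of the threshold, 74 lost their call, 30 gained one, 59 turned sign and 68 counts moved by over 1.5 times. The cause was not tested. Sign turns concerned values that had not been called.

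Counts of all items called moved as follows. LPS against PBS (12259) gave 4033 with normexp, 19392 without filter and 5815 without PBS 1 and PBS 2. NNK against PBS (11335) gave 17515 without filter, 6701 with slide as a fixed effect and 4275 without PBS 1 and PBS 2. LPS/NNK against PBS (12104) gave 5672 with normexp, 18538 without filter and 6718 without PBS 1 and PBS 2. LPS/NNK against NNK (3839) gave 327 with normexp. LPS/NNK against LPS (910) gave 0 with normexp, 340 without filter, 1538 with each probe tested, 37 with only the groups compared, 1925 with the replicate block and 464 without PBS 1 and PBS 2. LPS against NNK (1396) gave 213 with normexp and 815 with probes above background on all arrays. The interaction (8520) gave 35 with normexp, 13192 without filter and 2692 without PBS 1 and PBS 2. Other pathway genes called against PBS, an alternative chosen after seeing the data, were 12 in LPS (25), 8 in NNK (18) and 10 in LPS/NNK (19) without PBS 1 and PBS 2.

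Members called fell to 5 in LPS against PBS under normexp and without PBS 1 and PBS 2. They fell to 0 in NNK against PBS with slide as a fixed effect and without PBS 1 and PBS 2. In LPS against NNK they fell to 3 under quantile normalization, without filter and with the replicate block. In the interaction they were 0 under normexp, quantile normalization, the percentile over detected probes and without PBS 1 and PBS 2, and 2 with the replicate block (C4b and Serping1, -1.14).

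In NNK against PBS, C2 was -0.40 with normexp, -0.40 with quantile, -0.63 with cyclic loess, -0.23 with the percentile over detected probes, -0.0835 with the mean of probes, -0.0373 with slide as a random block, -0.40 with slide fixed and -0.37 without PBS 1 and PBS 2. Serping1 was -0.44 with normexp and quantile, -0.59 with loess, -0.0871 with the detected percentile and -0.17 with slide fixed. C3 was -0.31 with quantile and -0.62 with loess, and Cfb 0.23 with the replicate block and 0.15 without PBS 1 and PBS 2. Cd55 in LPS against PBS was 0.0305 without PBS 1 and PBS 2. Serping1 in LPS/NNK against PBS was -0.0512, -0.60, -0.73, -0.14 and -0.0801 under normexp, quantile, loess, detected percentile and slide fixed. In LPS/NNK against NNK it was -0.15 with quantile, -0.14 with loess and -0.0505 with the detected percentile, and C5ar1 was -0.16 with normexp. In LPS/NNK against LPS, C3ar1 was 0.21 with normexp, 0.0125 with slide as a random block and 0.00196 with the replicate block. There C3 was -0.17 with loess and -0.13 with the mean of probes, C5ar1 -0.0320 with loess and -0.32 with the replicate block, C2 -0.0454 with the mean of probes and Cd55 0.0146 with the replicate block. In LPS against NNK, normexp gave -0.19 for C3ar1 and -0.60 for C5ar1. In the interaction C3 was 0.31 with quantile and 0.44 with loess, and C5ar1 0.0335 without PBS 1 and PBS 2.

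With each array left out in turn, items called ranged over 10276 to 13193 (LPS against PBS), 8711 to 12320 (NNK against PBS), 10211 to 12595 (LPS/NNK against PBS), 1645 to 5867 (LPS/NNK against NNK), 76 to 4793 (LPS/NNK against LPS), 622 to 2216 (LPS against NNK) and 6259 to 10023 (interaction). Members called ranged, in that order, over 7 to 8, 1 to 4, 7 to 7, 3 to 5, 0 to 1, 2 to 5 and 0 to 2. In NNK against PBS, Cfb ranged over -1.02 to 0.67, C2 over -0.27 to 0.23 and C3ar1 over -0.015 to 0.53. Serping1 ranged over -0.0767 to 0.53 in LPS/NNK against PBS and -0.25 to 0.35 in LPS/NNK against NNK. In LPS/NNK against LPS, C3 ranged over -0.0592 to 0.31, Cfb over -0.0723 to 0.58, C3ar1 over -0.33 to 0.20 and C5ar1 over -0.14 to 0.34. The Cfb interaction ranged over -0.36 to 1.32 and that of C4b over -2.12 to -1.28.

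The share of calls that were higher moved by over 10 points with the scaling. It was 44.7% in LPS against PBS, 61.4% with normexp and 32.7% with the detected percentile. In NNK against PBS it was 52.5%, 82.1% and 37.2%, and in LPS/NNK against PBS 48.7%, 77.4% and 34.4%. In LPS/NNK against NNK it was 44.2% and 93.9% with normexp, in LPS/NNK against LPS 68.9% and 56.8% with loess, in LPS against NNK 42.7% and 87.8% with normexp, 55.7% with quantile and 59.5% with loess, and in the interaction 53.3%, 65.7% with normexp and 64.7% with the detected percentile. Normexp shifted the median difference of all items to PBS by 0.40 (LPS), 0.55 (NNK) and 0.60 (LPS/NNK), and the detected percentile by -0.25, -0.26 and -0.32. The deposited table changed no member's call. C5ar1 was well above background on 11 of 12 arrays.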
